A study of Mus musculus with 12 samples.

Results

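Kif18b, Mki67 and Ddias are genes of cell division and of the DNA damage response that accompanies it, and they were followed through 12 libraries of ribosome-bound RNA from the mouse hypothalamus, a tissue in which neurons no longer divide. The 3 genes are rows of a deposited table of 5764 genes and were chosen by name, with their CPM (reads scaled to 1000000 reads in the genes of the table) in both groups already known. Differences of these genes between the groups are therefore given as a description with no test. RNA came from arcuate-enriched dissections of POMCRiboTag mice, in which HA-tagged ribosomes of POMC neurons are pulled down with an anti-HA antibody. Before the test all mice went without food for 16 h and spent 1 h in the experimental room. The 6 NEO libraries came from mice shown wood sticks in a metal mesh for 10 min, and the 6 SENS libraries from mice shown chow pellets in the same kind of mesh, which could be seen and smelled but not eaten. All mice of both groups thus carried the tag, had been fasted and saw a caged object. The sources used here do not state the driver of the tag, the age of the mice or whether a library is 1 mouse, so the spread between libraries may be partly technical.

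Cell division runs through copying of the DNA, a check of the copy, and mitosis, in which a spindle of microtubules pulls the chromosomes apart. Ki-67, the protein of Mki67, coats mitotic chromosomes and keeps them from sticking to each other, and it is the standard stain for cycling cells because resting cells lose it. Kif18b encodes a kinesin motor that walks to the plus ends of spindle microtubules and helps to shorten them. Ddias encodes a suppressor of apoptosis after DNA damage, also known as noxin. In the adult hypothalamus, glia, their precursors, blood cells and the tanycytes that line the ventricle can divide, while POMC neurons are taken to be postmitotic.

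Many genes of the G2 and M phases carry in their promoters a CCAAT box, bound by the factor NF-Y, and a cell cycle homology region, TTTGAA, bound by the MuvB complexes that silence these genes in resting cells. The promoter windows of the 3 genes are shown because they place each gene with respect to this shared control. The windows come from RefSeq on GRCm38.p6 and run from 250 bases before to 50 bases after an annotated start, 5′ to 3′ on the minus strand. Capitals mark TTTGAA and CCAAT on either strand (CCAAT on the opposite strand reads ATTGG); no 2 marked motifs overlap.
Kif18b (chr11:102925075-102925374): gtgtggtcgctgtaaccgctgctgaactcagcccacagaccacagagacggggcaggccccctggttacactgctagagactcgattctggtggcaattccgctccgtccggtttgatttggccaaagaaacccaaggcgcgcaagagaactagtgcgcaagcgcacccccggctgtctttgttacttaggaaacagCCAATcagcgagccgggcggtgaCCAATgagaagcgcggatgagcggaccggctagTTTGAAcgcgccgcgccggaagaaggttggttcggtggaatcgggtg
Mki67 (chr7:135716330-135716629): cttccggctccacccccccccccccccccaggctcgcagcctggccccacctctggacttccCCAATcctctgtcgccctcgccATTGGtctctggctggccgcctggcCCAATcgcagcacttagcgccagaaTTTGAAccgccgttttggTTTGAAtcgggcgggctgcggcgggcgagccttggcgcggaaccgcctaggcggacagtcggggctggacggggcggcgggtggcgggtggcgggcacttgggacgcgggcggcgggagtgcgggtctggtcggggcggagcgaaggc
Ddias (chr7:92874198-92874497): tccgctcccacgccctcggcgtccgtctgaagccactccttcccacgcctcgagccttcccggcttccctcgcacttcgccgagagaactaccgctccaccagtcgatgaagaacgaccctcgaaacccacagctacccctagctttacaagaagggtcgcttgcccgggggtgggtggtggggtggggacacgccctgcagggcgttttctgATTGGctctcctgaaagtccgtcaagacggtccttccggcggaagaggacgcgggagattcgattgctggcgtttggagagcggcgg

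The Kif18b window held 1 TTTGAA (bases 254 to 259 of the window) and 2 CCAAT (bases 198 to 202 and 221 to 225). The Mki67 window held 2 TTTGAA (bases 135 to 140 and 153 to 158) and 3 CCAAT, 1 of them on the opposite strand. The Ddias window held 1 CCAAT on the opposite strand and no TTTGAA. This Ddias window lies inside the annotated gene, which ends at base 92874917, so a start further upstream is not in it. Both motifs together were in 6.95% of all 32851 windows of this reference. TTTGAA was in 17.9% of the windows and CCAAT in 37.4%. Of the 59 other cell division genes described below, 46 had a window. In these, TTTGAA was in 47.8%, CCAAT in 65.2% and both in 34.8%, against 20.5%, 37.7% and 8.16% for the 3910 genes of the deposited table with a window, 1 window per gene. A match is a run of letters and not a measured binding site.

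The genes of the table were of low abundance, and the highest mean of any gene was 14.2 reads per library. CPM here are shares of the reads in these genes, not of the whole library, so a high CPM is no sign of an abundant transcript. The NEO libraries had 6901 to 11139 reads in its genes and the SENS libraries 8619 to 18299, which makes a single read equal to 54.6 to 145 CPM. A count of 0 allows up to 3 reads, which is 163.9 to 435 CPM in a single library, 58.8 CPM over all NEO libraries (51054 reads) and 38.2 CPM over all SENS libraries (78624 reads). These limits cover counting error only, since reads were not marked by molecular identifiers. Total reads moved with the group, and the part of depth in the levels below was not tested. Pomc, Cartpt, Tbx3, Prdm12 and Pcsk1, listed to check the labelled cell type, are not analysed here (0 of the 5 had a value to use), so that label was not checked.

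Kif18b, the spindle kinesin, was read in NEO libraries and in no SENS library. The gene spans bases 102905518 to 102925134 of chromosome 11 (GRCm38), with no overlapping gene in the annotation. Its level was 1270 CPM in NEO 1, 0 in NEO 2, 3216 in NEO 3, 0 in NEO 4, 869 in NEO 5 and 775 in NEO 6. It was listed at 0 in all 6 SENS libraries. The 4 NEO libraries with reads lay above every SENS library, and the other 2 NEO libraries were at 0 as well, so the groups overlapped at 0. The mean was 1022 ± 1187 CPM in NEO (SD, n = 6) and 0 in SENS. In reads, NEO held 48 (13, 23, 6 and 6 in the 4 libraries) and SENS 0 of 78624. Over the pooled reads, Kif18b was at least 24.6-fold lower in SENS (940.2 CPM against the limit of 38.2 CPM), and at least 14.9-fold lower without NEO 3, which held 47.9% of its reads. These bounds leave out the spread between libraries. Kif18b was 1 of 10 genes among 5141 (0.195%) that were at 0 in all SENS libraries and above 0 in at least 4 NEO libraries. Of the 1215 genes with at least 40 reads, Kif18b and Rab44 were the 2 at 0 in all SENS libraries, and 13 were at 0 in all NEO libraries. Rab44 is named after its values were seen. Kif18b was chosen with its values known and meets both cuts (4 NEO libraries and 48 reads). These counts thus describe Kif18b and do not test it. In bulk RNA, fewer cells of a type and less RNA per cell cannot be told apart.

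Mki67, the marker of cycling cells, had the opposite distribution. The gene spans bases 135689784 to 135716450 of chromosome 7, with no overlapping gene in the annotation. It was listed at 0 in NEO 1 to NEO 5 and had 1356 CPM in NEO 6. In SENS it had 232 CPM in SENS 1, 1090 in SENS 2, 0 in SENS 3, 1583 in SENS 4, 2741 in SENS 5 and 27.3 in SENS 6. The single NEO library with reads lay above SENS 1, SENS 2, SENS 3 and SENS 6, so the groups overlapped. The NEO mean was 226 ± 553 CPM and the SENS mean 946 ± 1086 CPM (SD, n = 6 each). The SENS mean was 4.18-fold higher, a difference smaller than the SD of the SENS libraries. Reads numbered 10.5 in NEO and 69.5 in SENS, with 33 of the 80 in SENS 5. The 10.5 reads of NEO 6 and the 0.5 read of SENS 6 are fractions such as arise when a read is shared between places of the genome. Without SENS 5 the mean was 2.60-fold higher in SENS. Without NEO 6 the NEO mean was 0.

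Ddias, the apoptosis suppressor, was read in every NEO library. The gene spans bases 92857525 to 92874917 of chromosome 7, with no overlapping gene in the annotation, and its nearest neighbour Prcp begins 335 bases away. Its level was 2150 CPM in NEO 1, 180 in NEO 2, 559 in NEO 3, 3932 in NEO 4, 2898 in NEO 5 and 3873 in NEO 6. In SENS it was 812 CPM in SENS 1, 64.1 in SENS 2, 1349 in SENS 3 and 0 in SENS 4, SENS 5 and SENS 6. NEO 1, NEO 4, NEO 5 and NEO 6 lay above every SENS library, while NEO 2 and NEO 3 lay among the SENS libraries. The NEO mean was 2265 ± 1615 CPM and the SENS mean 371 ± 576 CPM (SD, n = 6 each), which made NEO 6.11-fold higher. Reads numbered 109 in NEO and 26 in SENS, of which SENS 3 held 18. Without SENS 3 the mean was 12.9-fold higher in NEO.

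**Figure D1:**
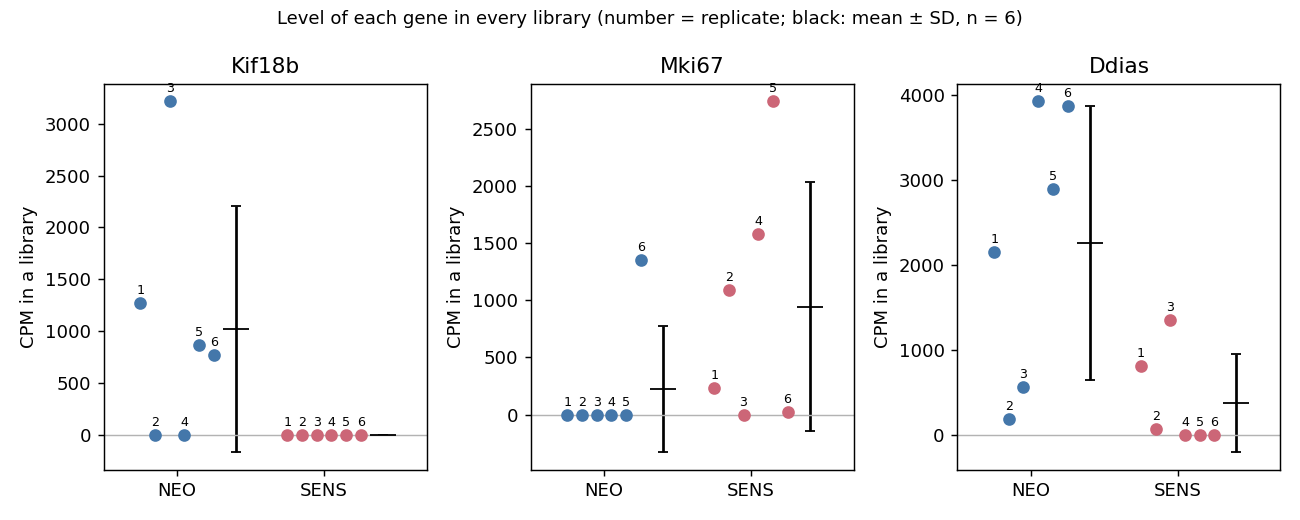
CPM of Kif18b, Mki67 and Ddias (vertical axes, a scale per gene) in each of the 6 NEO and 6 SENS libraries; each point is a library with its replicate number, and the black bar is the mean with the SD. Kif18b lies at 0 in all SENS libraries, Mki67 lies at 0 in 5 of 6 NEO libraries, and Ddias is above 0 in 6 NEO and 3 SENS libraries.

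On the scale of the fit over all genes, log2(CPM + 1), the difference of SENS minus NEO was −6.89 (SE 2.68) for Kif18b, 5.74 (SE 2.74) for Mki67 and −6.16 (SE 1.64) for Ddias. Such values depend on the amount added to CPM where libraries are at 0, and with 100 in place of 1 they were −2.54, 1.78 and −2.75. The value of Kif18b, which is at 0 throughout SENS, is no bound. Of the 5141 genes in the limma fit, 0 (0%) passed after Benjamini-Hochberg adjustment at 0.05, where the lowest adjusted p was 0.728. Before adjustment 189 (3.68%) lay under 0.05. All genes together had a median log2 fold change of 0.39 and a median SE of 1.82.

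**Figure D2:**
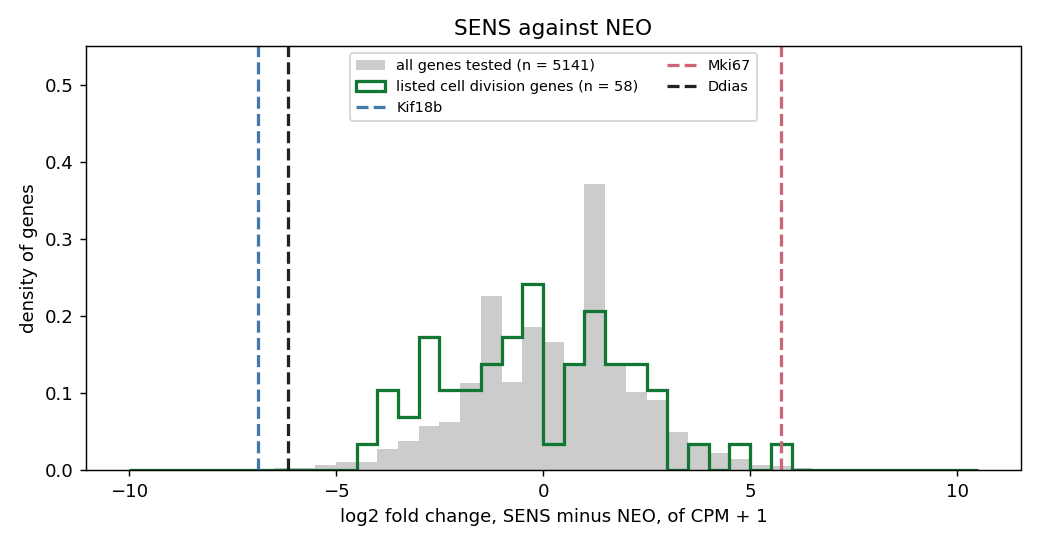
Log2 fold change of SENS minus NEO on the log2(CPM + 1) scale (horizontal axis) against the density of genes, for all 5141 genes tested (grey) and the 58 listed cell division genes tested (green outline), with dashed lines for the 3 genes. Kif18b (−6.89) and Ddias (−6.16) lie in the lower tail of all genes and Mki67 (5.74) in the upper tail, while the listed genes spread over both sides of 0.

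Numbers in the libraries' labels form 3 ranges, whose meaning the labels do not state. Each range holds NEO and SENS libraries in equal number. For Kif18b the mean of SENS minus NEO was −1270 CPM in the range 1046 to 1050 (1 library per group), −1072 CPM in 1062 to 1074 (3 per group) and −822 CPM in 1103 to 1116 (2 per group). For Mki67 the differences were 232, 891 and 706 CPM, and for Ddias −1338, −1086 and −3386 CPM, in the same order. With SENS at 0 throughout, the difference of Kif18b could not be above 0. In the range 1062 to 1074 it came from NEO 3 alone, since NEO 2 and NEO 4 held no Kif18b. The genes were chosen with these levels known, so the shared signs are a description and no separate evidence.

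Kif18b and Mki67 were seldom read in the same library, while every library with Kif18b also held Ddias. The contrast between groups, known when the genes were chosen, fixed this overlap. Kif18b was read in NEO alone, where Ddias was above 0 in all 6 libraries and Mki67 in 1. Kif18b was above 0 in 4 libraries and Mki67 in 6, and they shared NEO 6 alone. Ddias was above 0 in 9 libraries, which included all 4 with Kif18b and 3 of the 6 with Mki67. NEO 6 was the single library with reads of all 3. SENS 5, the library with most Mki67, held no read of Kif18b or Ddias, and NEO 3, the library with most Kif18b, held none of Mki67.

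Within a group, where the contrast between groups plays no part, 4 of the 6 planned correlations of CPM could be computed, because Kif18b does not vary in SENS. In NEO, Kif18b and Ddias had r = −0.40 (exact permutation p = 0.492, adjusted p = 0.833) and rho = −0.29 (p = 0.578, adjusted p = 0.889; n = 6, two-sided). Without the 2 libraries farthest from the median of Kif18b, r was −0.82. Without NEO 2 alone, r was −0.95 (exact permutation p = 0.00833, unadjusted), and without NEO 3 it was 0.19 (exact permutation p = 0.850), so this relation rests on single libraries. Mki67 and Ddias in SENS had r = −0.59 (exact permutation p = 0.208, adjusted p = 0.833) and rho = −0.64 (p = 0.200, adjusted p = 0.800), and r = −0.50 without the 2 libraries farthest from the median of Mki67.

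The remaining pairs rest on 1 library, since NEO 6 is the only NEO library with Mki67. Mki67 and Ddias in NEO had r = 0.49 (exact permutation p = 0.667, adjusted p = 0.833) and rho = 0.39 (p = 0.667, adjusted p = 0.889). Without the 2 libraries farthest from the median of Mki67, which include NEO 6, no r could be computed. Kif18b and Mki67 in NEO had r = −0.10 (exact permutation p = 0.833, adjusted p = 0.833) and rho = −0.13 (p = 1.0, adjusted p = 1.0), and r = 0.058 without the 2 libraries farthest from the median of Kif18b. Adjustment was over the 4 relations computed, and none passed. With 6 libraries and this many zeros, a p that misses the threshold does not show that the levels are unrelated.

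Cell division genes at large were looked up through 6 lists with 229 symbols, of which the table held 62, and 59 beside Kif18b, Mki67 and Ddias. None of the 59 was read in all 12 libraries, 29 were read in at least 6, and Cdkn2a was at 0 in every library. In NEO libraries 21 to 45 of the 59 were above 0 (median 30), and in SENS libraries 22 to 36 (median 31). Their summed level was 21069 ± 2954 CPM in NEO (18713 to 25005) and 21003 ± 5834 CPM in SENS (10269 to 26920; SD, n = 6 each). The 2 means differed by less than the spread in either group, and SENS 2 had the lowest sum. The share of these genes above 0 exceeded that of all genes of the table in each of the 12 libraries, by 4.03 percentage points in SENS 2 (to 44.1%) and by 38.3 in NEO 5 (to 76.3%), the smallest and largest excess. The listed genes also had higher levels: 50 of the 58 tested averaged at least 100 CPM, against 2465 of all 5141. The part of level in this excess was not tested.

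**Figure D3:**
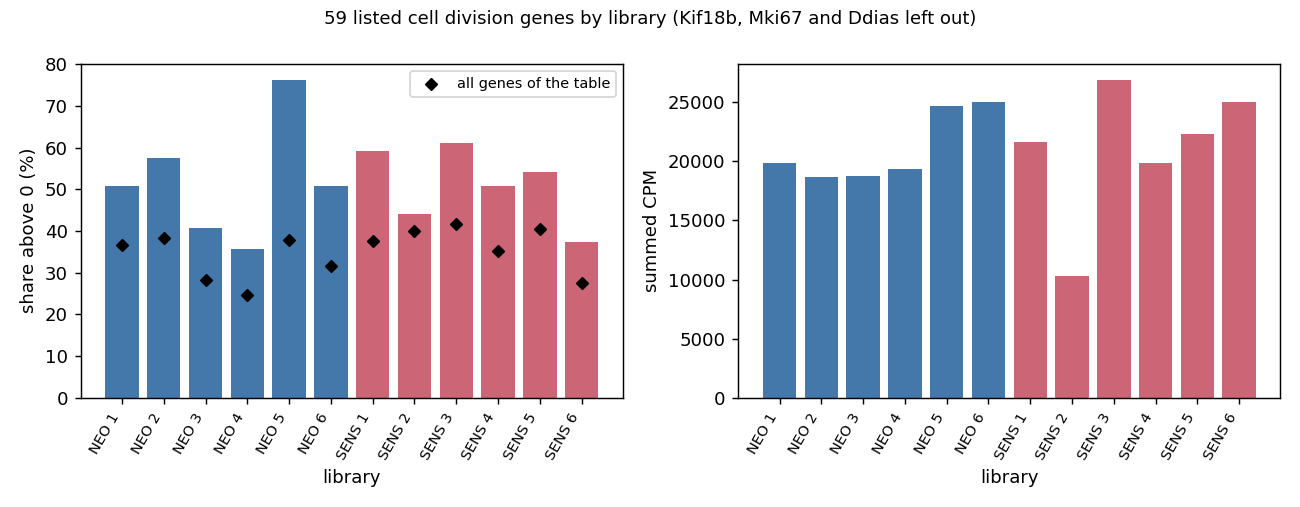
Left, share of the 59 listed cell division genes above 0 in each library (bars, %) with the share of all table genes (diamonds); right, their summed CPM per library. NEO libraries (blue) and SENS libraries (red) overlap in both, and SENS 2 has the lowest sum (10269 CPM).

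Of the 58 listed genes tested, 33 (56.9%) had lower and 25 higher values in SENS, with a median log2 fold change of −0.19. Over all genes 43.0% were lower, with a median of 0.39. Among genes averaging at least 100 CPM the gap was smaller. There 28 of 50 listed genes were lower (median −0.16), against 48.8% of all genes (median 0.052). For the 58 genes the side of 0 depended on single libraries: without NEO 5 or without SENS 6, 26 were lower and 32 higher, with medians of 0.30 and 0.38. None passed in limma after adjustment over all genes. Before adjustment 4 lay under 0.05 (6.90%, against 3.68% of all genes): Pole2, Cdca8, Pbk and Knl1, of which Pbk is named after its values were seen. Each had a limma adjusted p = 0.745.

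The 6 lists split by role as follows. Mitotic kinesins and spindle genes were higher in SENS for 6 of 14 (median log2 fold change −0.12). Mitotic kinases and checkpoint genes were higher for 5 of 12 (median −1.02), and centromere and condensin genes for 7 of 10 (median 1.58). Cyclins and their inhibitors were higher for 3 of 6 (median 0.46), DNA replication genes for 1 of 7 (median −2.14), and DNA damage response and repair genes for 3 of 9 (median −0.62). No list had a gene that passed.

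Of the 12 other listed genes with most reads, 11 are described here, and the library with most reads of a gene held from 19.5% of them (Kifc5b) to 56.2% (Cdk1). Pole2, a subunit of DNA polymerase epsilon, was above 0 in all NEO libraries (449 to 1739 CPM, median 1135) and had 0 to 1411 CPM in SENS (median 194). On the log2(CPM + 1) scale Pole2 differed by −4.22 (SE 1.46), with an adjusted p = 0.745 from limma. Cdca8, or borealin, a subunit of the complex that carries Aurora B kinase to centromeres, averaged 1322 ± 884 CPM in NEO and in SENS 522 ± 486 CPM (SD, n = 6 each). The 2 genes are those of the 11 with reads in every NEO library, and both overlapped between groups.

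Knl1, the kinetochore scaffold, averaged 349 ± 721 CPM in NEO and in SENS 1053 ± 1187 CPM (SD, n = 6 each), where SENS 6 held 56.2 of its 113 reads. Cdk1, the kinase that drives entry into mitosis, had 362 ± 266 and 1185 ± 1514 CPM, with 73 of 130 reads in SENS 6. Ccnb2, a cyclin partner of Cdk1, had nearly equal means (667 ± 532 and 691 ± 633 CPM). SENS 6, which holds most Cdk1, held 0.5 read of Mki67. Kif18b was at 0 there, as in every SENS library. SENS 5, the library with most Mki67 (33 reads), held 22 reads of Cdk1, 22 of Ccnb2 and 3.33 of Knl1.

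Ncapg, of condensin, averaged 659 ± 603 CPM in NEO and in SENS 809 ± 383 CPM (SD, n = 6 each). Cdca7l, a relative of the cell division gene Cdca7, had 843 ± 967 and 719 ± 676 CPM. Sgo1, which protects cohesin at centromeres, had 685 ± 576 and 639 ± 712 CPM. These 3 pairs of means differed by less than the spread within either group.

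Uhrf1, which maintains DNA methylation after replication, averaged 997 ± 1729 CPM in NEO and in SENS 762 ± 1017 CPM, with 35 of 105.5 reads in NEO 4. Brip1, a helicase of DNA repair, had 901 ± 632 and 908 ± 1182 CPM, with 39.2 of 109.2 reads in SENS 3. Kifc5b, a kinesin with the near-identical copy Kifc1, had 795 ± 725 and 897 ± 739 CPM and carried fractional reads, so its value is uncertain. Knl1, Brip1, Uhrf1 and Sgo1 carried fractional reads as well. Knl1 held 0.7 read in NEO 1, 0.45 in NEO 2 and 0.2 in NEO 4.

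**Figure D4:**
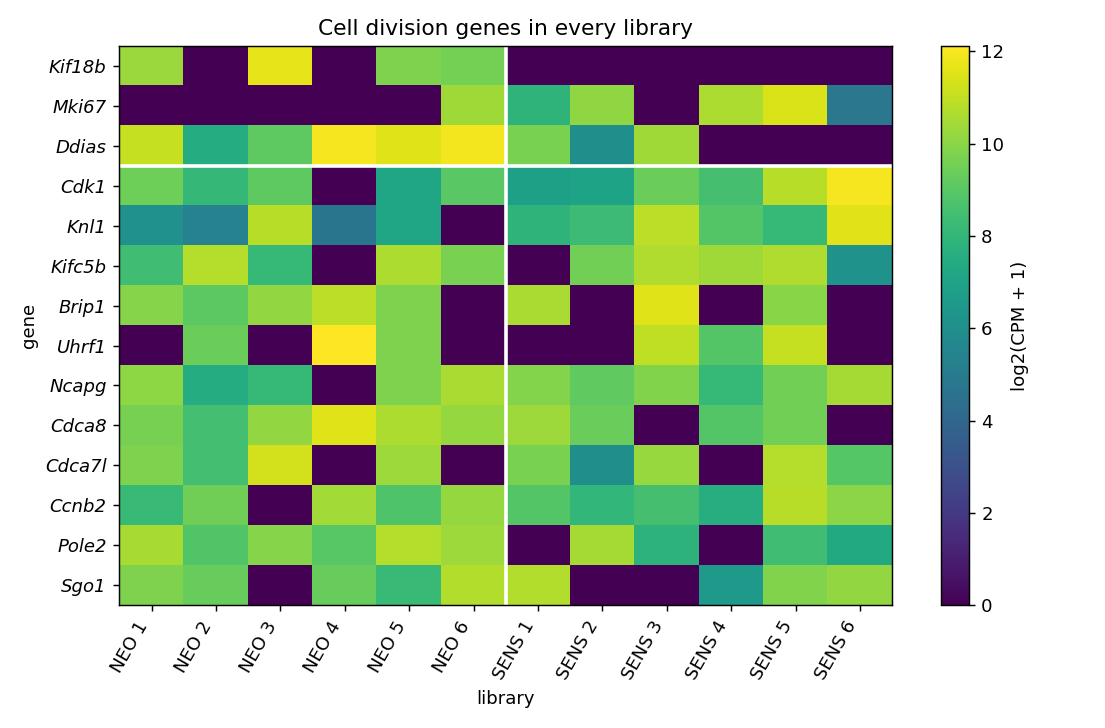
Colour gives log2(CPM + 1) of Kif18b, Mki67 and Ddias (top rows) and of 11 of the 12 other listed genes with most reads (ordered by reads) in each library (columns; NEO left and SENS right of the white line); the darkest cells are 0. Kif18b is dark across SENS and Mki67 across 5 NEO libraries, and no row below is dark throughout SENS or in 5 NEO libraries. The rows below were kept for reads in at least 6 libraries, which Kif18b (4 libraries) does not meet. Among all 59 other listed genes, 2 were at 0 in every SENS library only and 3 in every NEO library only. The matching counts over all genes are not given here, so these counts cannot be called few or many.

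Among the 29 listed genes above 0 in at least 6 libraries, the median Spearman rho over their 406 pairs was 0.0071 over the 12 libraries, 0.0 within NEO and 0.030 within SENS. Over all pairs of the 1862 genes of the table that meet the same minimum it was 0.014, 0.029 and 0.029. These are descriptions over pairs that share the same libraries and depth, and they place the listed genes near all genes. The median rho with the 29 genes over the 12 libraries was 0.11 for Kif18b, 0.092 for Mki67 and 0.17 for Ddias. With all genes compared it was 0.042, −0.015 and 0.014, in the same order. Such medians span both groups, so they include the contrast known when Kif18b, Mki67 and Ddias were chosen. The part of that contrast in them was not tested, and no medians within a group are given for these genes.

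The genes most like each in rank over the 12 libraries were none of the listed ones. For Kif18b they were the pancreatic polypeptide receptor gene Npy4r (rho = 0.85), the neurotrophic factor gene Pspn (0.83) and the secreted protein gene Fam3b (0.82). For Mki67 they were Gm33727 (0.86), the microRNA gene Mir1191 (0.83) and the sperm gene Spata4 (0.81). For Ddias they were Gm4868 (0.91), Gm6803 (0.87) and the sulfate transporter gene Slc13a1 (0.85). They head 1862 genes compared with Kif18b and 1861 each with Mki67 and Ddias, all above 0 in at least 6 libraries. Only 29 of the genes compared were other listed genes, so 0 among these 9 says little about the listed ones. The lowest rho were nearly as far from 0 as the highest (−0.80, −0.82 and −0.90). These rho span both groups, and Npy4r (52 reads in NEO and 7 in SENS), Gm33727 (1 and 34) and Gm4868 (22 and 2) differ between the groups in the same direction as the gene they follow.

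Reads of single genes were concentrated in few libraries throughout the table. Over the 1215 genes with at least 40 reads, the library with most reads held a median of 28.6% of them (quartiles 22.0% and 40.4%), and a median of 9 libraries were above 0. Kif18b (47.9% in NEO 3, 4 libraries) and Mki67 (41.3% in SENS 5, 6 libraries) were more concentrated than the upper quartile, and Ddias (23.0% in NEO 4, 9 libraries) lay near the lower one.

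Of the other cell types that could hold dividing cells, markers of microglia, oligodendrocyte precursors, tanycytes, endothelium and astrocytes are not analysed here, since 0 of them had a value to use. A part of these cell types in the levels above was thus not tested. For lymphocytes and macrophages the table held 7 of 10 markers, with a summed level of 635 to 2826 CPM in NEO (median 1594) and 1585 to 5135 CPM in SENS (median 2654); Ms4a1, the B cell marker CD20, was at 0 throughout. For the pituitary it held 6 of 8, with 380 to 2797 CPM in NEO (median 692) and 64.1 to 9796 CPM in SENS (median 1013). Both sums had higher medians in SENS, as did Mki67 and unlike Kif18b and Ddias, and their part in these levels was not tested.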

How the data were processed

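Ribosome-bound RNA of 6 NEO and 6 SENS libraries was amplified with a low-input cDNA kit, per the labels' protocols. The authors deposited 1 table of CPM values, each column summing to between 999936 and 1000000 over its own genes. FastQC, HISAT2, featureCounts and edgeR, and the builds GRCm38 and mm10, are named without versions per the submitters' processing notes. The sources used here do not state the gene filter, the use of strand or how multiply placed reads were counted. The commonest value above 0 in a column was taken as 1 read. On that scale 81.2% of values were whole reads (tolerance 0.005 reads), too few for a count model.

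SENS and NEO were compared with limma 3.58.1 (R 4.3.3; variance trend, two-sided, Benjamini-Hochberg) on log2(CPM + 1) for genes averaging 1 CPM or more, tested on simulated data. Correlations used exact permutation over all 720 orders. Named genes were Kif18b, Mki67 and Ddias, the 12 other listed genes with most reads among those above 0 in at least 6 libraries, and the 3 genes of highest Spearman rho with each. Of the 12 listed genes, 1 is not reported here but was kept in all fits and counts. The members and lists were chosen with earlier results of these data known. Symbols were matched to RefSeq (GRCm38.p6). Other pseudocounts, filters, blocks and left-out libraries were tried.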

Additional observations from a re-analysis of the deposited data

Results flagged for a closer look

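Among 15 genes in 2 groups, 29 sets of 6 libraries varied, and in 4 of them 1 library stood apart from the other 5 by more than 0.625 of the range (Dixon's 95% value for 6). That value flags about 1 in 20 sets of normally distributed values. These CPM hold many zeros, so that rate does not apply to them, and whether 4 is an excess cannot be told. Mki67 had 1356 CPM in NEO 6 and 0 in the other NEO libraries. Knl1 had 1818 CPM in NEO 3, where the next highest NEO library had 145 CPM. Uhrf1 had 4439 CPM in NEO 4 against 869 CPM in the next. Pole2 had 1411 CPM in SENS 2 against 332 CPM in the next.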

How the results depend on the processing

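No gene was called over the whole table or among the 58 listed genes with pseudocounts of 10 or 100, no filter, a mean of at least 100 CPM, no variance trend, either block, or any library left out. In the fit with the replicate block 0 genes were called, and 176 had an unadjusted p under 0.05 against 189 without it. Same-numbered libraries correlated between −0.032 and 0.082 in their deviations from the group means, and 1 of 6 NEO libraries was most like the SENS library of its own number, so the numbers were not taken to pair the samples. Listed genes with lower values in SENS numbered 26 to 34 over all settings. The log2 fold changes ranged from −8.27 to −2.54 for Kif18b, 1.78 to 7.47 for Mki67 and −7.37 to −2.75 for Ddias, with the same sign in each setting. For Kif18b no setting could change the sign, since every SENS library was at 0. All 3 genes were chosen with the contrast known, so a stable sign is no test of it. On log2(CPM + 1) the NEO correlation of Kif18b with Ddias turned to r = 0.27 and with Mki67 to r = 0.25. With 1 library left out, r ranged from −0.95 to 0.19 for Kif18b with Ddias and from −0.21 to 0.19 for Kif18b with Mki67 in NEO. For Mki67 with Ddias it lay between 0.38 and 0.70 in NEO and between −0.83 and −0.47 in SENS, over all settings that gave a value. The cause of the turns was not tested. With 54.6 to 145 CPM per read, low levels rest on a few reads.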
